A study of Mus musculus with 40 samples.

Results

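The calcineurin and NFAT genes of mouse CD4+ T cells were followed at the RNA level through 8 groups of 3 libraries. The set held 10 of the 21950 genes in the table, chosen by their symbols: the NFAT transcription factors Nfatc1, Nfatc2, Nfatc3 and Nfat5, the calcineurin subunits Ppp3ca, Ppp3cb, Ppp3cc and Ppp3r1, and the regulators of calcineurin Rcan1 and Rcan3. All 10 had rows in the table and passed the filter on low values in every comparison. The RNA-seq groups were resting and activated conventional T cells (Tconvs), resting and activated thymus-derived regulatory T cells (tTregs, labelled nTreg), resting and restimulated induced regulatory T cells (iTregs), and iTregs restimulated with the ORAI channel inhibitor CM-4620 (labelled ORAIinh) or with cyclosporin A (CsA; titled iTreg, with the cell type given as Treg). All cells came from mice on the C57BL/6 background that carry a fluorescent reporter of Foxp3, the transcription factor that defines Tregs. Tconvs and tTregs came from the spleens of mice aged 2 to 4 months, tTregs being CD4+ cells with the reporter, while the gate for Tconvs in this experiment is not given in the sources used here. iTregs were made from naive CD4+ T cells of mice aged 6 weeks by 4 days on anti-CD3 and anti-CD28 with TGF-β and IL-2, were sorted on the reporter, rested for 1 day in IL-2 and restimulated through CD3 and CD28. Naive cells that had been stimulated in culture and cells taken from the spleen are therefore compared whenever iTregs stand beside the other cell types, and the age of the mice differed as well. That the inhibitor groups were restimulated is taken from the study's text. The length of activation in the RNA-seq experiment and the inhibitor doses are not given in the sources used here, nor is it stated which libraries came from separate mice or cultures, so p-values measure the spread between these libraries only.

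Calcineurin is the phosphatase that links store-operated calcium entry (SOCE) to transcription in T cells. It is a dimer of a catalytic A subunit (α, β or γ, encoded by Ppp3ca, Ppp3cb and Ppp3cc) and the calcium-binding regulatory B subunit (Ppp3r1), and it is switched on by calcium-loaded calmodulin. It removes phosphates from NFATc1, NFATc2 and NFATc3, which then enter the nucleus, often to bind beside AP-1, while kinases such as GSK3, DYRK and CK1 put the phosphates back. NFAT5 shares the DNA-binding domain but not the calcineurin control, and is known for the response to osmotic stress. CsA blocks calcineurin as a complex with cyclophilin A (Ppia), and CM-4620 acts upstream of it at the calcium channel. RCAN proteins bind calcineurin and dampen it. The short form of Rcan1 is a textbook product of an internal start site that NFAT itself drives. A short form of Nfatc1 is a textbook target of NFAT as well, so the RNA of both genes is often read as feedback of calcineurin activity.

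Of the genes of this feedback readout, the start sites of Rcan1 are shown first, and those of Nfatc1 are not shown. Nfatc1, Ppp3ca and Ppp3cc were left out of the search for matches, so nothing is said here about their start sites. RefSeq windows on GRCm38.p6, from 250 bases before to 50 bases after a start site, were used for 7 of the 10 genes, 10 windows in all. They were searched on both strands for GGAAA, the core that NFAT proteins bind, whose reverse complement is TTTCC. At least 1 match was found in 7 of the 10 windows and in 61.3% of the 32851 windows of all genes, so its presence alone sets no gene apart. Rcan1 has 2 windows on the minus strand of chromosome 16, whose start sites lie 66091 bases apart. The upstream window, chr16:92466120-92466419, held no match, and the internal window, chr16:92400029-92400328, held 3, a number reached in 9.42% of all windows. The window of Ppp3cb, the subunit gene called in the iTreg restimulation comparison below, lies at chr14:20546524-20546823 on the minus strand and held 4 matches (4 or more in 2.65% of all windows). Nfatc2, which was higher in resting iTregs than in the other resting cells, has 2 windows on the minus strand, of which the upstream one, chr2:168601608-168601907, held 3 and is printed, and the other, chr2:168590316-168590615, held 1. Of the other windows not printed, those of Nfatc3 held 1 and 0 matches, that of Nfat5 2, that of Ppp3r1 0 and that of Rcan3 1. A link between the number of matches and expression was not tested. A match is a run of letters and not a measured binding site. Capitals mark GGAAA or TTTCC, and each window is written 5′ to 3′ along its gene.
Rcan1, upstream start: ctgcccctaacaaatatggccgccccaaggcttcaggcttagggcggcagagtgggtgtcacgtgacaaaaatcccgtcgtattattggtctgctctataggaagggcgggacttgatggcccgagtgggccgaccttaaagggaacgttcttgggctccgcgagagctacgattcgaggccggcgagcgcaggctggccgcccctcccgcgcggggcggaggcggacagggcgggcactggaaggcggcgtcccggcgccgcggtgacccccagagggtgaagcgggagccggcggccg
Rcan1, internal start: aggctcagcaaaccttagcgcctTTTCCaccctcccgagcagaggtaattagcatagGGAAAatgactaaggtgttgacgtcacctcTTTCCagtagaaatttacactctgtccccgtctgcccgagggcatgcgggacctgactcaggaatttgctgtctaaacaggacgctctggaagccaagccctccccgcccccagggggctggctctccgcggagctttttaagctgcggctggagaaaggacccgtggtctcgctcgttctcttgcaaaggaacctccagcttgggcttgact
Ppp3cb: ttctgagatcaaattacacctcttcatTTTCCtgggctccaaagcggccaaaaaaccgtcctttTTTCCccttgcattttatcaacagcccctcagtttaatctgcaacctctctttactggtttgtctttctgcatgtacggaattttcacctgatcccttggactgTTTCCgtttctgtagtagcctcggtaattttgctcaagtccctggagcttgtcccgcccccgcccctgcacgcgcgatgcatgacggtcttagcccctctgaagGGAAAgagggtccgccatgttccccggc
Nfatc2, upstream start: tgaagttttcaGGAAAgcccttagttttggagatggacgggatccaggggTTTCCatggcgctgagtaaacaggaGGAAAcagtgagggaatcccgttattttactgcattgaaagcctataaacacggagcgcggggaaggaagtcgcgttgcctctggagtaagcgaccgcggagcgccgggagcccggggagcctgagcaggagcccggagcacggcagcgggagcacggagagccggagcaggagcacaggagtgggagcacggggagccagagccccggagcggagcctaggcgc

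Expression is given as normalized counts, the reads on a gene divided by a size factor for its library. Each library held between 5256800 and 15685234 reads assigned to genes, and the tTreg groups were the shallowest, with medians of 7582030 and 7131720 reads. The tTreg replicates also varied most, with 12.7 to 36.3 times the variance that counting alone gives, against 2.69 to 16.4 in the other groups. Foxp3 averaged 10.4 normalized counts in resting Tconvs, 7537 in resting tTregs and 1280 in resting iTregs, and Ikzf2, a marker of tTregs, averaged 9403 in resting tTregs and 167 in resting iTregs. The 4 Treg markers, these 2 included, summed to 25348 to 28206 in resting tTregs and 13240 to 17057 in resting iTregs. In Tconvs that sum was 458 to 478 at rest and 5116 to 5357 after activation. Cd3e, Cd4 and Cd28 were present in every group. The 3 NK cell markers together reached 19.3 to 30.9 normalized counts in resting Tconvs, at most 3.54 in activated Tconvs and 0 elsewhere. Of the B cell markers, Cd79b lay at 85.4 to 126 normalized counts in tTregs and at 36.9 or less elsewhere, Cd79a reached at most 22.6 in any library and Ms4a1 was at 0 in all 24. The 4 globin genes summed to 24.2 to 26.2 in resting iTregs and to at most 11.4 elsewhere. The 5 myeloid markers summed to 842 to 940 in Tconvs, to 780 to 1011 in resting and 1360.45 to 1853 in activated tTregs, and to 1406 to 1818 in iTregs. Most of that sum was Cst3, with means of 877 in resting and 1537 in activated tTregs, while Lyz2, Csf1r and Itgam averaged at most 10.9 in any group. Of the 5, 3 averaged at least 10 in resting Tconvs and 2 in every other group, so Cst3 was not alone. The 2 CD8 genes summed to 223 to 236 in resting and 110 to 123 in activated Tconvs, to 157 to 178 in resting and 105 to 160 in activated tTregs, and to 99.0 to 126 in iTregs. The part of these signals in the differences below was not tested. The normalized totals were lower in tTregs, and scaling to equal read totals (CPM) instead would have moved the median log2 fold change of all genes by 0.26 in resting tTregs against resting Tconvs, by -0.31 in resting iTregs against resting tTregs and by -0.12 in tTreg activation. In bulk libraries, fewer cells that express a gene and less RNA per cell cannot be told apart.

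A gene was called at an adjusted p below 0.05 (limma, Benjamini-Hochberg over all genes tested) and an absolute log2 fold change above 0.5, on the scale of log2(normalized count + 1). Activation of Tconvs called 6 of the 10 genes, Ppp3cc upward and Nfatc1, Nfatc3, Ppp3ca, Ppp3r1 and Rcan3 downward, where 50.2% of all genes tested were called. Activation of tTregs called 3 of 10, Ppp3ca, Ppp3cb and Ppp3r1, all downward, against 21.9% of all genes. Restimulation of iTregs called 1, Ppp3cb, downward, against 12.8%. These shares of the 10 genes stood near those of all genes, and the median log2 fold change of the 10 genes was -0.55, -0.29 and -0.06 in the 3 comparisons, against -0.04, 0.00 and -0.01 over all genes.

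**Figure D1:**
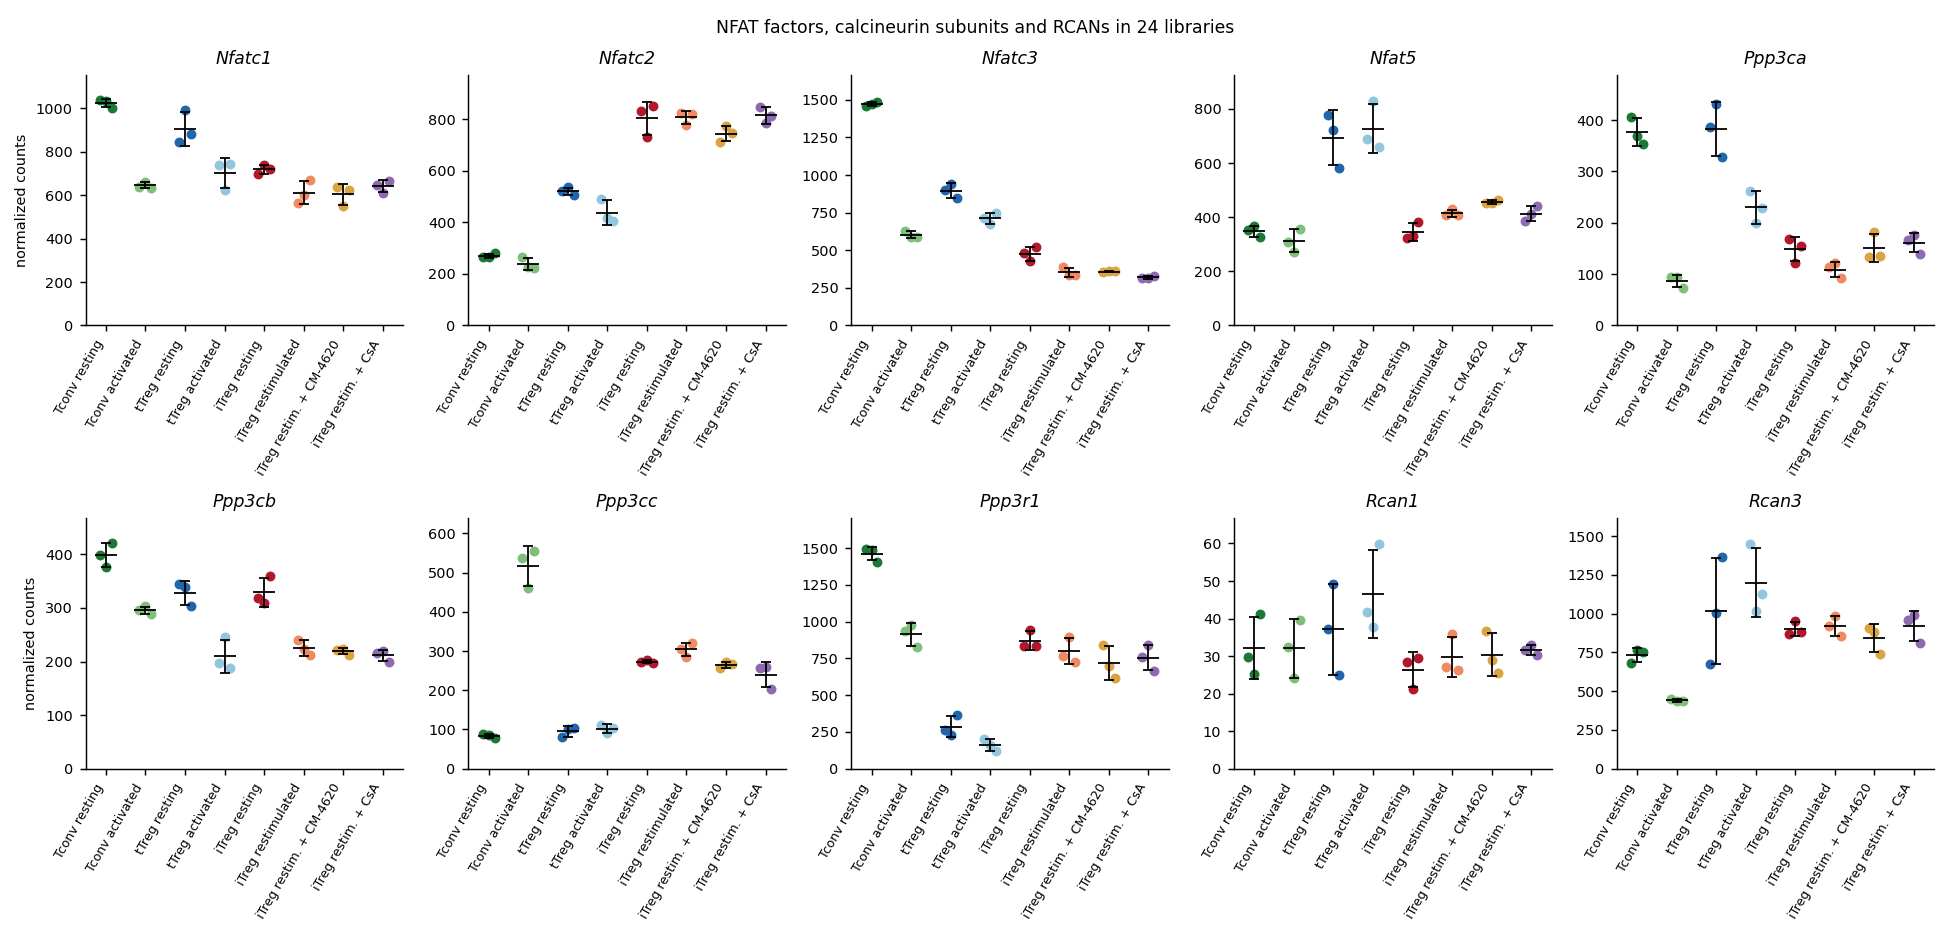
Normalized counts (y axes, linear, from 0) of the 10 genes in each of the 24 libraries; points are libraries, bars are the mean and SD of 3 libraries, and colors mark the 8 groups. Ppp3cc is highest in activated Tconvs (517 on average), Ppp3r1 is lowest in tTregs, Nfatc2 is higher in the 4 iTreg groups than in the others, and Rcan1 stays below 60 in all 24 libraries.

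Of the catalytic subunits of calcineurin, Ppp3cc rose and Ppp3ca fell when Tconvs were activated. Ppp3cc, which encodes the γ isoform and lies on chromosome 14 from 70217865 to 70289471 (minus strand), counted 88.4, 85.4 and 79.0 in resting Tconvs and 536, 459.7 and 555 in activated Tconvs. Its activated libraries lay far above the resting ones, a rise of 2.60 ± 0.13 (log2 fold change ± SE), or 6.06-fold, with an adjusted p of 3.01e-10. Ppp3ca, which encodes the α isoform (chromosome 3, 136670124 to 136937727, plus strand), went the other way, from 406, 369 and 353 in resting to 93.4, 94.0 and 72.9 in activated Tconvs. Ppp3ca fell by 2.11 ± 0.16 on the log2 scale, with an adjusted p of 2.28e-08. Ppp3cb, the β isoform (chromosome 14, 20499364 to 20546573, minus strand), averaged 399 ± 22.1 (SD, n = 3) in resting and 296 ± 7.03 in activated Tconvs, with no overlap of the libraries. Its log2 fold change of -0.43 ± 0.11 had an adjusted p of 0.00347 but stayed under the fold threshold.

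In tTregs Ppp3ca and Ppp3cb fell with activation, and Ppp3cc was not called. Ppp3cc counted 79.8, 101 and 104 in resting and 112, 89.9 and 104 in activated tTregs, which overlap, and its log2 fold change of 0.10 had a 95% interval from -0.17 to 0.38 (-0.018 when scaled to CPM). Ppp3ca counted 386, 432 and 328 in resting tTregs and 263, 199 and 229 in activated tTregs, a fall by 0.73 ± 0.16 on the log2 scale with an adjusted p of 0.00251. The level of resting Ppp3ca was much the same in tTregs and Tconvs, with means of 382 and 376 and an interval of the log2 difference from -0.32 to 0.35. Ppp3cb fell by 0.65 ± 0.11, from 328 ± 22.2 to 209.6 ± 31.1, with an adjusted p of 0.000476. The response of Tconvs differed from that of tTregs for 4 of the 10 genes, when the difference itself was tested, against 34.7% of all genes. Of the 3 catalytic genes, 2 were among them, Ppp3cc with a difference of 2.50 ± 0.18 (Tconv response minus tTreg response, log2; adjusted p = 9.41e-08) and Ppp3ca with -1.38 ± 0.22 (adjusted p = 0.000183). For Ppp3cb the difference was 0.22 ± 0.16 (adjusted p = 0.280).

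Resting iTregs stood between resting and activated Tconvs in Ppp3cc and Ppp3ca. Ppp3cc counted 273, 276 and 270.1 in resting iTregs, above every library of resting Tconvs and tTregs and below every library of activated Tconvs. Against resting Tconvs it was higher by 1.69 ± 0.13 (adjusted p = 1.58e-08), and against resting tTregs by 1.53 ± 0.13 (adjusted p = 5.65e-08); the resting iTreg libraries serve in both comparisons. Ppp3ca, at 168, 122 and 156, was lower than in resting Tconvs by 1.35 ± 0.16 (log2 difference -1.35, adjusted p = 1.58e-06) and lower than in resting tTregs to a like degree (-1.36 ± 0.16, adjusted p = 1.47e-06). Ppp3cb averaged 329 ± 27.5 in resting iTregs and 328 ± 22.2 in resting tTregs, with an interval of the log2 difference from -0.23 to 0.24 (the difference was -0.31 when scaled to CPM).

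Of the catalytic genes, restimulation of iTregs called Ppp3cb. Ppp3cb counted 318, 309 and 360.4 in resting iTregs and 241, 223 and 213 after restimulation. The libraries did not overlap, and Ppp3cb fell by 0.54 ± 0.09 on the log2 scale with an adjusted p of 0.000317, close to the fold threshold. Without the libraries numbered 3 the change was -0.43 and the call was lost to the fold threshold, as was that of CM-4620 against rest given below (-0.49). Ppp3cc averaged 304 ± 17.5 after restimulation, with a log2 fold change of 0.15 and an interval from -0.06 to 0.36. Ppp3ca went from 148 ± 23.6 to 109 ± 14.6, a log2 fold change of -0.44 ± 0.16 with an adjusted p of 0.0469, under the fold threshold. The iTreg response differed from that of Tconvs for 4 of the 10 genes (44.2% of all genes), among them Ppp3cc by -2.45 ± 0.17 (iTreg response minus Tconv response; adjusted p = 9.05e-11) and Ppp3ca by 1.67 ± 0.23 (adjusted p = 2.41e-06). Against the tTreg response, 1 of the 10 differed (21.3% of all genes), and for Ppp3cc that difference was 0.05 with an interval from -0.30 to 0.40.

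**Figure D2:**
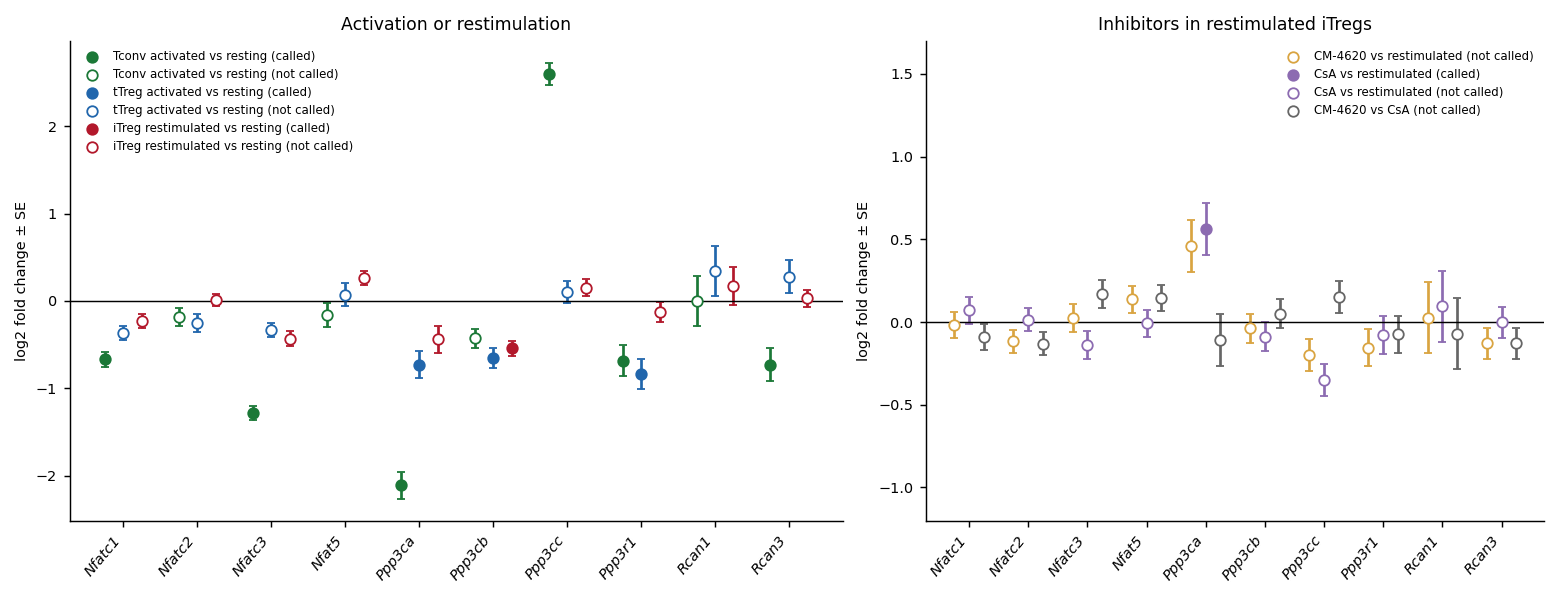
Log2 fold change ± SE (y axes) of the 10 genes, left for activation of Tconvs (green) and tTregs (blue) and restimulation of iTregs (red), right for the inhibitors in restimulated iTregs; filled points were called and open points were not. Ppp3cc at 2.60 and Ppp3ca at -2.11 in Tconvs stand apart from every other point, and Ppp3ca with CsA, at 0.56, is the only filled point among the inhibitor comparisons.

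Levels of different genes can be compared only per length. Normalized counts per kilobase of merged exon were therefore summed over the 3 catalytic genes, and the share of each was taken. Ppp3cc made up 25.4% ± 1.15 (SD, n = 3) of the catalytic sum in resting and 80.3% ± 2.24 in activated Tconvs. The share was 29.7% ± 4.24 in resting and 42.1% ± 2.93 in activated tTregs. In iTregs it was 63.7% ± 2.34 at rest and 73.6% ± 2.36 after restimulation, with 69.0% ± 1.34 under CM-4620 and 66.5% ± 1.46 under CsA. Ppp3ca made up 33.9%, 35.6% and 10.3% of the sum in resting Tconvs, tTregs and iTregs, and 4.07% in activated Tconvs. The catalytic sum itself went from 111 ± 3.83 to 215 ± 15.4 normalized counts per kilobase in Tconvs, from 107 ± 7.27 to 80.9 ± 4.49 in tTregs, and from 144 ± 3.60 to 138 ± 4.42 in iTregs. The shares depend on the length taken for each gene: with the longest transcript in place of all exons, Ppp3cc made up 15.6% and 68.4% of the sum in resting and activated Tconvs, and its order among the groups was the same. The 2985 merged exon bases of Ppp3cc share 3.05% with an overlapping gene model.

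**Figure D3:**
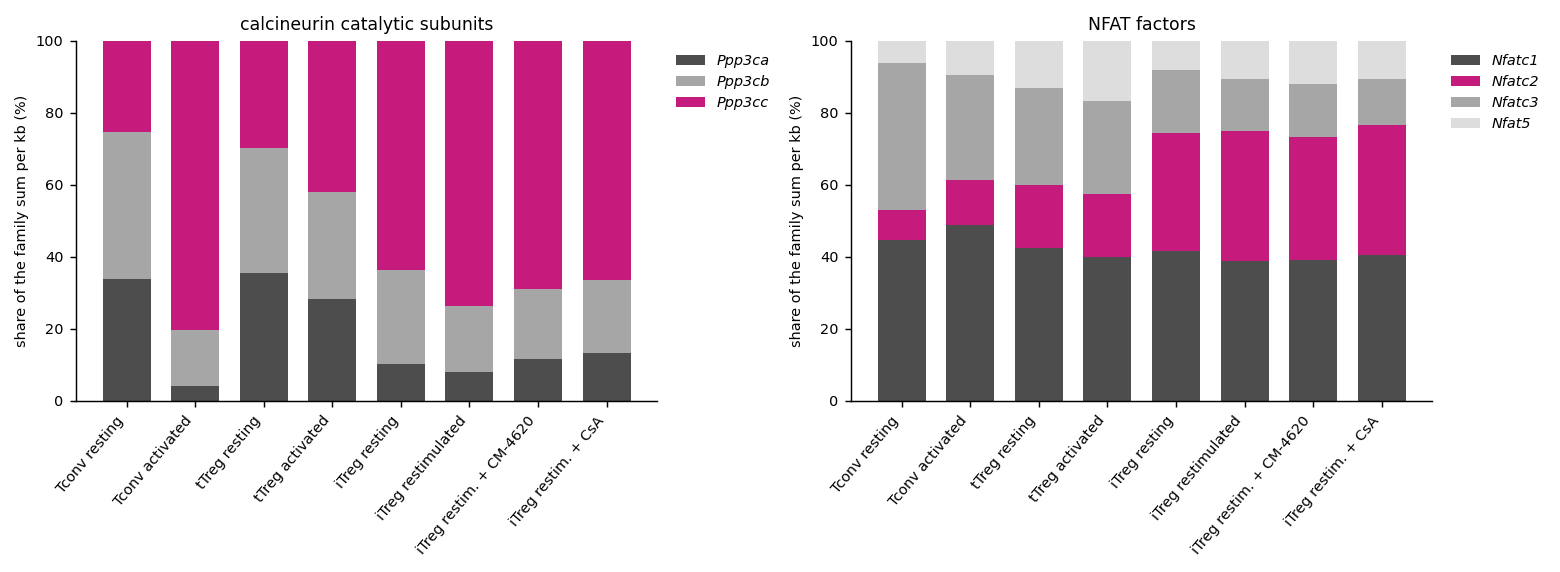
Mean share (y axes, %, n = 3 libraries) of each gene in the sum of normalized counts per kilobase of exon, left for the calcineurin catalytic subunits and right for the NFAT factors, in the 8 groups. The Ppp3cc share runs from 25.4% in resting to 80.3% in activated Tconvs, and the Nfatc2 share is at least 32.8% in the 4 iTreg groups and at most 17.5% in the others.

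The regulatory subunit separated tTregs from the other cells. Ppp3r1, on chromosome 11 from 17159263 to 17200375 (plus strand), counted 1492, 1488 and 1409 in resting Tconvs but 264, 229.7 and 367 in resting tTregs. The groups lay far apart, with a log2 difference of -2.37 ± 0.17 (tTreg minus Tconv), a 5.18-fold lower level, and an adjusted p of 2.95e-08. Resting iTregs, with 832, 943 and 836, stood between them: lower than Tconvs by 0.75 ± 0.17 (log2 difference -0.75, adjusted p = 0.00118) and higher than tTregs by 1.62 ± 0.17 (adjusted p = 7.07e-07). Of the 3228 exon bases of Ppp3r1, 14.3% are shared with Wdr92, so some reads could belong to either gene. Wdr92 averaged 357 in resting Tconvs and 251 in resting tTregs.

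Ppp3r1 fell with activation in both cell types from the spleen. In Tconvs it went to 935, 978 and 825, a fall by 0.68 ± 0.17 (adjusted p = 0.00313), and in tTregs to 199, 161 and 119.9, a fall by 0.84 ± 0.17 (adjusted p = 0.00201). The tTreg change was -0.46 without the libraries numbered 3, under the fold threshold. The responses of Tconvs and tTregs differed by 0.16, with an interval from -0.37 to 0.68. In restimulated iTregs Ppp3r1 counted 769, 897 and 727, overlapping the resting libraries, with a log2 fold change of -0.13 (interval -0.37 to 0.11). Its response in iTregs exceeded that in tTregs by 0.71 ± 0.23 (adjusted p = 0.0270), the only member of the set for which those 2 responses differed. This call was lost without the libraries numbered 2, where the difference was 0.85 (adjusted p = 0.0742), or 3, where it was 0.36 (adjusted p = 0.185). Against the Tconv response the difference was 0.55 ± 0.23 (adjusted p = 0.0523), which was called under 9 of 17 alternatives. The testis isoform Ppp3r2 was at 0 in every library.

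Of the NFAT factors, Nfatc2, Nfatc3 and Nfat5 differed between resting tTregs and resting Tconvs. The comparison of resting tTregs with resting Tconvs called 4 of the 10 genes (38.6% of all genes), with Nfatc2 and Nfat5 higher and Nfatc3 and Ppp3r1 lower in tTregs. Resting iTregs differed from resting Tconvs in 6 of the 10 genes (63.6% of all genes), and from resting tTregs in 6 (63.4%). These comparisons share their resting libraries, so their values are not independent. Between resting tTregs and Tconvs the genes not called had log2 differences of 0.41 ± 0.19 for Rcan3 (adjusted p = 0.0777), -0.28 ± 0.11 for Ppp3cb, -0.18 ± 0.08 for Nfatc1, 0.18 ± 0.29 for Rcan1, 0.16 ± 0.13 for Ppp3cc and 0.02 ± 0.16 for Ppp3ca. Scaled to CPM, Rcan3 was called (0.67) and Nfatc1 was at 0.078. Between resting iTregs and Tconvs they were 0.29 ± 0.19 for Rcan3, -0.28 ± 0.11 for Ppp3cb, -0.26 ± 0.29 for Rcan1 and -0.014 ± 0.133 for Nfat5, and between resting iTregs and tTregs -0.44 ± 0.29 for Rcan1, -0.33 ± 0.08 for Nfatc1 and -0.12 ± 0.19 for Rcan3, besides Ppp3cb above.

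Nfatc2, on chromosome 2 from 168476410 to 168601657 (minus strand), encodes the NFAT protein that is abundant in resting T cells. It counted 266, 265 and 279 in resting Tconvs, 519.8, 535 and 506 in resting tTregs, and 832, 730.4 and 849 in resting iTregs, with no overlap between cell types. The log2 difference from resting Tconvs was 0.94 ± 0.10 in tTregs (adjusted p = 1.86e-06) and 1.57 ± 0.10 in iTregs (adjusted p = 2.03e-09). iTregs exceeded tTregs by 0.62 ± 0.10 (adjusted p = 4.96e-05), or by 0.31 when scaled to CPM, where the call was lost to the fold threshold. Stimulation called Nfatc2 in no cell type, and restimulated iTregs counted 822, 777 and 820.1, within the range of the resting iTregs. Per kilobase, Nfatc2 made up 8.31% ± 0.29 of the summed NFAT factors in resting Tconvs, 17.3% ± 0.55 in resting tTregs and 32.8% ± 1.60 in resting iTregs.

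Nfatc3 (chromosome 8, 106058840 to 106130537, plus strand), a calcium-regulated factor that is prominent in thymocytes, had the reverse order. It counted 1456, 1474 and 1485 in resting Tconvs, 898, 943 and 849.7 in resting tTregs, and 481, 427 and 519.7 in resting iTregs. The log2 difference from resting Tconvs was -0.71 ± 0.08 in tTregs (adjusted p = 4.25e-06) and -1.63 ± 0.08 in iTregs (adjusted p = 1.45e-10); scaled to CPM, the tTreg value was -0.45 and fell under the fold threshold. Activation took Nfatc3 in Tconvs to 629, 591 and 591, a fall by 1.28 ± 0.08 (adjusted p = 5.21e-09). In tTregs the log2 fold change was -0.33 ± 0.08 (adjusted p = 0.00671) and in iTregs -0.43 ± 0.08 (adjusted p = 0.00145), both under the fold threshold with no overlap of the libraries. The difference between responses was -0.95 ± 0.12 for Tconvs against tTregs (adjusted p = 1.67e-05) and 0.85 ± 0.11 for iTregs against Tconvs (adjusted p = 8.47e-07).

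Nfatc1, the factor whose short form is induced on lymphocyte activation, was not higher in any activated group. It lies on chromosome 18 from 80606205 to 80713071 (minus strand). It counted 1039.8, 1035 and 1004 in resting Tconvs and 639, 662 and 635 after activation, a fall by 0.67 ± 0.08 (adjusted p = 6.52e-06). Resting tTregs averaged 906 ± 77.1 and activated tTregs 703 ± 67.1, with a log2 fold change of -0.37 ± 0.08 (adjusted p = 0.00400), and resting and restimulated iTregs averaged 719 ± 21.9 and 612 ± 54.7, with -0.23 ± 0.08 (adjusted p = 0.0373). Neither of the last 2 reached the fold threshold. Nfatc1 was lower in resting iTregs than in resting Tconvs by 0.51 ± 0.08 (log2 difference -0.51, adjusted p = 5.71e-05), which slipped under the threshold without the libraries numbered 1 (-0.48) and with DESeq2 or recomputed size factors (-0.50). The table adds all transcripts of a gene, so its short and long forms are not told apart.

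Nfat5 (chromosome 8, 107293470 to 107379517, plus strand) set tTregs apart. It counted 779, 723 and 581 in resting and 691, 831 and 661 in activated tTregs, against 353, 367 and 326 in resting Tconvs and 321, 332 and 383 in resting iTregs. Every tTreg library lay above every library of the other 6 groups. Resting tTregs exceeded resting Tconvs by 0.98 ± 0.13 (adjusted p = 2.03e-05), and resting iTregs were lower than resting tTregs as well (log2 difference -0.998 ± 0.133, adjusted p = 7.40e-06). Activation called Nfat5 in neither Tconvs (-0.16, interval -0.45 to 0.12) nor tTregs (0.07, interval -0.21 to 0.35, and -0.051 when scaled to CPM). In iTregs its log2 fold change on restimulation was 0.27 ± 0.08 with an adjusted p of 0.0217, under the fold threshold. Nfatc4, the remaining calcium-regulated factor, had at most 1 read in any library.

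The RCAN genes gave the feedback readout. Rcan1, on chromosome 16 from 92391953 to 92470867 (minus strand), was measured on 21 to 56 reads per library. It counted 28.5, 21.2 and 29.6 in resting iTregs, 27.2, 35.9 and 26.3 after restimulation, 36.7, 29.0 and 25.4 with CM-4620, and 31.7, 32.8 and 30.4 with CsA. The 4 iTreg groups averaged between 26.4 and 31.6, and restimulated libraries overlapped those of every other iTreg group. The log2 fold change on restimulation was 0.17 with an interval from -0.29 to 0.63, that of CM-4620 against restimulation 0.03 (interval -0.43 to 0.48), and that of CsA 0.10 (interval -0.36 to 0.55). These intervals leave room for changes of either sign up to their limits.

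Outside iTregs Rcan1 did not move beyond its spread either. It counted 29.8, 25.3 and 41.3 in resting and 32.3, 24.1 and 39.6 in activated Tconvs, with a log2 fold change of 0.00 (interval -0.62 to 0.61). In tTregs it counted 37.2, 49.3 and 25.1 at rest and 41.7, 37.8 and 59.9 after activation, with 0.34 (interval -0.27 to 0.95). Rcan1 was called in 0 of the 14 comparisons by limma, edgeR and DESeq2 alike, with log2 fold changes from -0.44 to 0.34, a lowest adjusted p of 0.176 and 0 unadjusted p-values under 0.05. With CPM it was called in 1, lower in resting iTregs than in resting tTregs, with quantile normalization in 1, and without the libraries numbered 3 in 1. The windows printed above belong to its long and short forms, and the table does not separate them.

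Rcan3, on chromosome 4 from 135412308 to 135433853 (minus strand), made up 89.3% to 95.3% of the 2 RCAN genes per kilobase in every group. It counted 685, 766 and 751 in resting Tconvs and 452, 439 and 434 after activation, and fell by 0.73 ± 0.19 (adjusted p = 0.00326). Without the libraries numbered 2 the log2 fold change was -0.69 and the adjusted p was 0.0610. The SE is drawn from all 15 libraries of the fit, not from the Tconvs alone. The SD of the log2 values of Rcan3 was 0.51 in resting tTregs, 0.086 in resting Tconvs and 0.029 in activated Tconvs. In tTregs the resting libraries were spread widely, at 678, 1007 and 1367, and overlapped the activated ones at 1448, 1018 and 1129.8, with a log2 fold change of 0.28 (interval -0.12 to 0.68). Restimulated iTregs averaged 919 ± 65.7 against 901 ± 44.3 at rest. The response of Tconvs differed from that of tTregs by -1.01 ± 0.26 (adjusted p = 0.00716) and the response of iTregs from that of Tconvs by 0.76 ± 0.24 (adjusted p = 0.0104), and both calls were lost without the libraries numbered 2 (adjusted p = 0.0606 and 0.124). Rcan2 was at 0 in every library.

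The inhibitors were given to ask which part of the restimulated state depends on SOCE and calcineurin. CM-4620 called 0 of the 10 genes against restimulated iTregs, where 3.3% of all genes were called. By limma without adjustment 1 of the 10 had a p under 0.05, and edgeR and DESeq2 also called 0. Beside Ppp3ca and Rcan1 the log2 differences ran from -0.20 for Ppp3cc through -0.15 for Ppp3r1, -0.13 for Rcan3, -0.12 for Nfatc2, -0.04 for Ppp3cb, -0.02 for Nfatc1 and 0.03 for Nfatc3 to 0.14 for Nfat5. CsA called 1 of the 10, Ppp3ca, against 2.92% of all genes. Beside Ppp3ca, Ppp3cc and Rcan1 the differences ran from -0.14 for Nfatc3 through -0.09 for Ppp3cb, -0.08 for Ppp3r1, -0.0084 for Nfat5, -0.00062 for Rcan3 and 0.01 for Nfatc2 to 0.07 for Nfatc1. Against resting iTregs, CM-4620 called 1 gene (Ppp3cb, 7.1% of all genes) and CsA called 2 (Nfatc3 and Ppp3cb, 9.43%). All of these comparisons share their libraries with the restimulation comparison.

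Ppp3ca counted 113, 121 and 92.6 in restimulated iTregs, 134, 181 and 136 with CM-4620, and 167, 177 and 139.9 with CsA. Every inhibitor library lay above every restimulated library. The log2 fold change was 0.56 ± 0.16 for CsA (adjusted p = 0.0390) and 0.46 ± 0.16 for CM-4620 (adjusted p = 0.0970). The CsA call was lost without any replicate number in turn (adjusted p from 0.0683 to 0.223), in a fit of all 24 libraries (0.0576) and without the filter on low values (0.0602), while its size stayed between 0.55 and 0.57 in these fits. Ppp3cc, at 305, 286 and 321 in restimulated iTregs, counted 257, 259.7 and 202 with CsA, a log2 fold change of -0.35 ± 0.10 with an adjusted p of 0.0382 that stayed under the fold threshold.

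Neither inhibitor returned Ppp3cb to its resting level. It counted 222, 223 and 212 with CM-4620 and 216, 219.6 and 199.9 with CsA, all below the resting libraries. Of the restimulation change in Ppp3cb, 107% ± 7.16 (SD, n = 3) was left with CM-4620 and 116% ± 13.2 with CsA, on the log2 scale. These SDs cover the inhibitor libraries only and leave out the spread of the resting and restimulated libraries. Nfatc3, at 386, 336 and 335 after restimulation, counted 356, 359.99 and 359 with CM-4620 and 316, 313 and 328 with CsA, and its log2 difference between CsA and rest was -0.57 ± 0.08 (adjusted p = 0.000224). The CM-4620 and CsA groups differed from each other in 0 of the 10 genes by limma, with 0 at an unadjusted p under 0.05 and 0 by edgeR or DESeq2, where 0.36% of all genes were called. The log2 differences (CM-4620 minus CsA) ran from -0.13 for Nfatc2 and Rcan3 to 0.17 for Nfatc3. The widest 95% interval of that difference was that of Rcan1, from -0.53 to 0.39 on the log2 scale, and the narrowest that of Nfatc2, from -0.28 to 0.02.

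**Figure D4:**
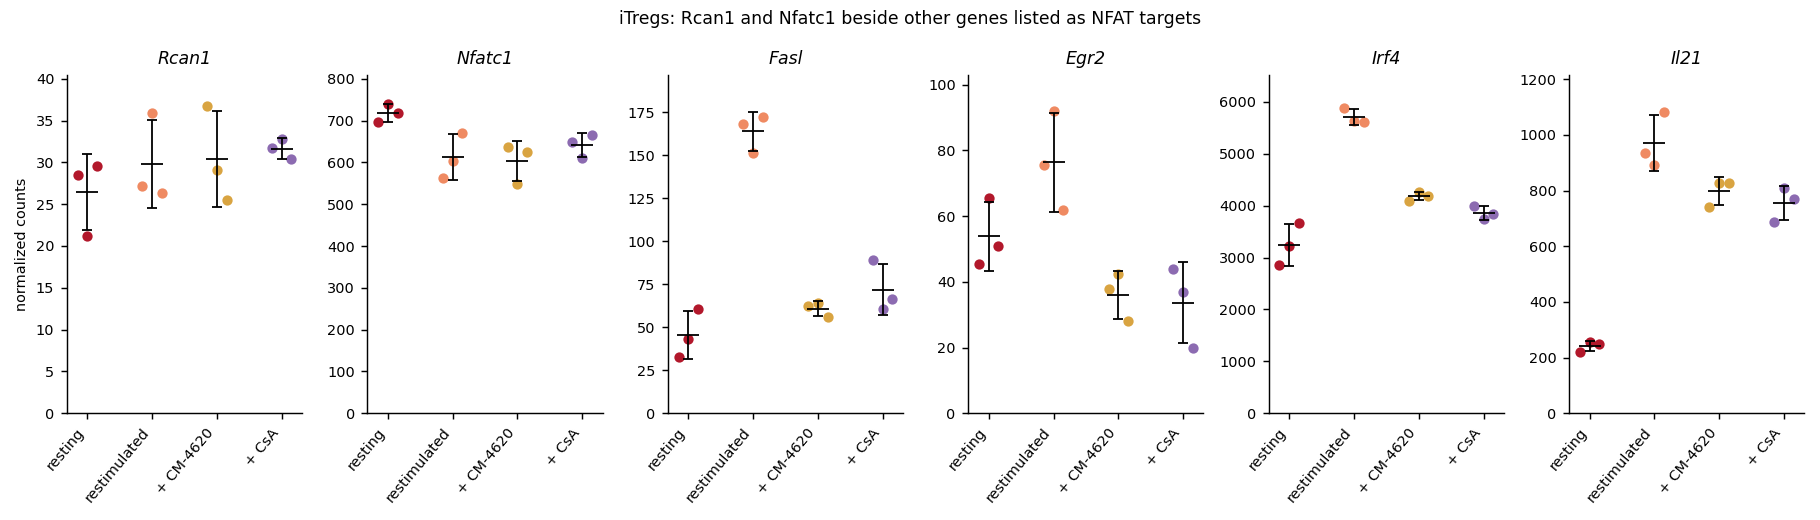
Normalized counts (y axes, linear, from 0) of Rcan1, Nfatc1 and 4 genes listed as NFAT targets in the 12 iTreg libraries; points are libraries and bars the mean and SD of 3. Fasl averages 164 after restimulation and 60.9 and 71.9 with the inhibitors, whereas the 4 group means of Rcan1 lie between 26.4 and 31.6. Against restimulation, Fasl and Egr2 were called with both inhibitors, Irf4 with CsA only and Il21 with neither.

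Other genes listed as NFAT targets were read beside the RCANs. Of 18 listed genes, 13 passed the filter in the iTreg libraries, and 7 of these were called on restimulation, 6 higher and 1 lower, where 12.8% of all genes were called. Those that changed most were Il21 (2.00 ± 0.09, log2 fold change ± SE), Csf2 (1.93 ± 0.49), Fasl (1.87 ± 0.20) and Il4 (1.36 ± 0.22), all higher. The list was written with earlier results of these libraries known. Csf2 and Ifng passed the filter only through the restimulated libraries, with restimulated means of 11.7 and 16.8 and resting means of 2.67 and 5.25, so the filter favoured a difference in them, and their values are a description. Among the other 11 listed genes 6 were called on restimulation, 5 higher and 1 lower. CM-4620 called 3 of the 13 against restimulation (3 of the other 11, and 3.3% of all genes), all lower: Fasl, which encodes the death ligand (-1.42 ± 0.20, adjusted p = 0.000384), the transcription factor Egr2 (-1.06 ± 0.27, adjusted p = 0.0226) and Nr4a1 (-0.82 ± 0.20, adjusted p = 0.0212). CsA called 4 (3 of the other 11, and 2.92% of all genes), all lower, namely Ifng (-2.73 ± 0.67, adjusted p = 0.0219), Egr2 (-1.21 ± 0.27, adjusted p = 0.0112), Fasl (-1.19 ± 0.20, adjusted p = 0.00182) and Irf4 (-0.57 ± 0.07, adjusted p = 0.000228). Il21, Il4 and Csf2, among the genes that rose most on restimulation, were called with neither inhibitor. Not called does not mean unchanged. By its own tests, the study names Il21 among the genes whose rise was blocked by CM-4620 or CsA. It also reports that both inhibited the secretion of IL-21 protein. Fasl counted 168, 151 and 173 after restimulation, 62.2, 64.3 and 56.2 with CM-4620 and 88.9, 60.6 and 66.4 with CsA, and no inhibitor library overlapped the restimulated ones. Il2 averaged at most 5.47 normalized counts in any group, including activated Tconvs.

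In the spleen-derived cells the same list was called in 11 of 11 tested genes on activation of Tconvs, 8 higher and 3 lower, against 50.2% of all genes, with Irf4 (6.98 ± 0.16), Il2ra (6.74 ± 0.10), Tnf (3.91 ± 0.15) and Egr2 (3.50 ± 0.34) leading. Ifng passed the filter there only through the activated Tconvs, and 10 of the other 10 were called. Activation of tTregs called 4 of the 11 (21.9% of all genes), Fasl (-1.10 ± 0.38), Pdcd1 (-0.87 ± 0.19) and Cd40lg (-0.86 ± 0.16) lower and Irf4 (0.84 ± 0.16) higher. The median log2 fold change of the list was 2.50 in Tconvs and -0.08 in tTregs. The test of the difference between these responses called 10 of the 11 (9 of 10 without Ifng), against 34.7% of all genes, with Il2ra (6.80 ± 0.14) and Irf4 (6.13 ± 0.23) furthest apart.

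Genes that act on calcineurin or NFAT were counted by list. Of the 11 kinases that rephosphorylate NFAT, all tested, 6 were called on activation of Tconvs (50.2% of all genes), all lower, led by Dyrk2 (-2.11 ± 0.11) and Csnk1e (-1.49 ± 0.15), and 4 on activation of tTregs (21.9% of all genes), all lower, led by Dyrk2 (-0.87 ± 0.11). Resting iTregs had 6 of the 11 kinases lower than resting Tconvs, led by Dyrk2 (-2.69 ± 0.11), and 3 lower than resting tTregs, among them Mapk8 (-1.84 ± 0.11), where 63.6% and 63.4% of all genes were called. Restimulation of iTregs called 2 (12.8% of all genes), Dyrk1b higher (0.87 ± 0.19) and Dyrk2 lower (-0.55 ± 0.13).

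The calmodulins, which switch calcineurin on, and the immunophilins that carry CsA and FK506 made up a list of 5. All 5 were called in resting iTregs against resting tTregs (63.4% of all genes), each higher, with Fkbp1a (2.41 ± 0.53), Calm3 (2.20 ± 0.19) and Ppia (1.46 ± 0.11), which encodes cyclophilin A, in front, and 4 of 5 against resting Tconvs (63.6% of all genes). Activation of Tconvs called 4 of 5 (50.2%), Fkbp1a (1.73 ± 0.53), Calm3 (1.33 ± 0.19) and Ppia (0.57 ± 0.11) higher and Calm2 (-0.68 ± 0.14) lower. Activation of tTregs called 3 of 5 (21.9%), Fkbp1a (1.48 ± 0.53) and Calm3 (0.63 ± 0.19) higher and Calm2 (-0.50 ± 0.14) lower. Of the 11 inhibitors, scaffolds and transport factors, 8 passed the filter. On activation of Tconvs 2 of these were called, fewer than the 50.2% of all genes, the anchoring protein gene Akap5 lower (-1.57 ± 0.39) and the nuclear exporter Xpo1 higher (0.87 ± 0.18), and on restimulation of iTregs 1 (12.8% of all genes), Lrrk2 (1.43 ± 0.30).

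The genes whose group means followed those of Rcan1 and Nfatc1 most closely were found by Pearson's r over the 8 group means of log2 values, among 11725 genes. For Rcan1 these were Wdr19 (0.98), Zfp28 (0.98), Chrnb1 (0.97), Ick (0.97) and Chmp2b (0.96). For Nfatc1 they were Casc3 (0.98), Yy1 (0.98), Rhbdl3 (0.98), Zranb1 (0.98) and Prkcb (0.98). Within the set, Nfat5 came closest to Rcan1 (0.80) and Nfatc3 to Nfatc1 (0.91). These are descriptions over 8 points that share libraries and size factors, and Rcan1 was called in 0 of the 14 comparisons.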

How the data were processed

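RNA was amplified with a modified SMART-seq2 protocol and libraries were made by tagmentation, without molecular identifiers. Per the submitters' processing notes, the authors trimmed reads with cutadapt 1.18, aligned them to mm10 with STAR 2.5.3 and counted them on GENCODE genes with RSEM 1.3.0. The deposited signal is the gene count over 1 size factor for each library. In each of the 24 libraries 100% of the values were whole multiples of the smallest value above 0 (tolerance 0.001), which gave the reads back. A strand setting for counting is not given in the sources used here, so overlapping genes may share reads.

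Groups came from the GEO labels. Genes that reached 10 normalized counts in 3 or more libraries of a fit were tested on the log2 scale, after adding a pseudocount of 1, with limma 3.58.1 in R 4.3.3 and a trend in the prior variance. The 15 libraries of resting and activated Tconvs and tTregs and resting iTregs made up the first fit (11495 genes), the 12 iTreg libraries the second (11105 genes) and all 24 the third (11725 genes), which gave the differences between the iTreg response and the others. Adjustment followed Benjamini and Hochberg over all genes of a fit, and the thresholds were an adjusted p of 0.05 and an absolute log2 fold change of 0.5, those stated for the study's own DESeq2 tests. edgeR 4.0.16 and DESeq2 1.42.0 were run on the recovered reads as alternatives. Other alternatives were a pseudocount of 0.1 or 5, recomputed size factors, quantile normalization, a filter of 100 or none, fits of only the groups compared and of all libraries, group weights, a replicate block, omission of each replicate number in turn, other thresholds and, chosen after seeing the data, CPM (reads scaled to equal totals). The 3 fits were tested on simulated data. Members, lists and tests were chosen with earlier results of these data known. All 10 members were tested in every comparison and those called are named, and of each list of partners or targets up to 4 called genes of largest change, besides the 5 genes most like Rcan1 and Nfatc1. Gene positions and exon lengths come from GENCODE M21 (GRCm38), promoters from RefSeq (GRCm38.p6). Of the listed genes 2, Nron and Trac, had no row in the table, and 1 listed marker gene is not reported here. The chromatin samples (16 of 40) were not analysed here.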

Additional observations from a re-analysis of the deposited data

Results flagged for a closer look

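In 9 cases the response of a gene to stimulation differed between cell types by a test of the difference itself (limma, adjusted over all genes). Between Tconvs and tTregs, as Tconv response minus tTreg response on the log2 scale, these were Ppp3cc with 2.50 ± 0.18, Ppp3ca with -1.38 ± 0.22, Rcan3 with -1.01 ± 0.26 and Nfatc3 with -0.95 ± 0.12, where 34.7% of all genes differed.

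Between iTregs and Tconvs, as iTreg response minus Tconv response, they were Ppp3cc with -2.45 ± 0.17, Ppp3ca with 1.67 ± 0.23, Nfatc3 with 0.85 ± 0.11 and Rcan3 with 0.76 ± 0.24, where 44.2% of all genes differed. The same Tconv libraries serve in both sets. Between iTregs and tTregs, Ppp3r1 differed with 0.71 ± 0.23, where 21.3% of all genes differed. This call was lost under 5 of 17 alternatives. Groups of 3 libraries were not tested for outlying samples.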

How the results depend on the processing

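At an absolute log2 fold change above 1, the members called were 3 in Tconv activation, 0 in tTreg activation, 1 in resting tTregs against Tconvs, 3 in resting iTregs against tTregs, 2 in the iTreg against the Tconv response, and 0 in restimulation, CsA against restimulation, either inhibitor against rest and the iTreg against the tTreg response. Of the 11495 genes tested, 3047 were called above 1 in Tconv activation and 763 in tTreg activation. In the resting comparisons named, 2268 and 4750 of them were called. Of 11725 genes, 2857 and 978 were called in the iTreg against the Tconv and the tTreg response. With the adjusted p alone the members called were 5 in tTreg activation, 5 in restimulation, 2 for CsA against restimulation and 4 for CM-4620 against rest. Over all genes, it called 3994 of 11495 in tTreg activation and, of 11105, 3264, 945 and 2045 in the others, in the same order. CsA against restimulation called 0 members with all 24 libraries in the fit, 0 without the filter and 0 to 0 when a replicate number was left out. Leaving out a number gave 0 to 2 members in restimulation, 0 to 1 for CM-4620 against rest and 0 to 1 for the iTreg against the tTreg response, which was also 0 with group weights and 0 with only the groups compared. The cause of these differences was not tested. With the longest transcript as length, the Ppp3cc share was 15.6% and 68.4% in resting and activated Tconvs, 18.7% and 28.3% in tTregs, and 48.4%, 59.8%, 54.5% and 51.8% in resting, restimulated, CM-4620 and CsA iTregs.

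Of the 140 values (10 members in 14 comparisons), 39 were called, and none of these changed sign under the alternatives run. The 39 were chosen for their size in these same libraries, and the other thresholds reuse the main fold changes. A kept sign in them is a description. Of the 101 not called, 34 changed sign under at least 1 alternative, none of them called after the change, 10 of them under an alternative other than leaving out a replicate number. Rcan1 in Tconv activation was 0.032 with DESeq2, 0.017 with edgeR and 0.031 with recomputed size factors. Nfat5 in tTreg activation was -0.051 with CPM. Ppp3cc in tTreg activation was -0.018 with CPM. Nfatc1 in resting tTregs against Tconvs was 0.078 with CPM. Rcan1 in resting tTregs against Tconvs was -0.094 with quantile normalization. Nfat5 in resting iTregs against Tconvs was 0.0073 with DESeq2 and 0.0034 with recomputed size factors. Ppp3cb in resting iTregs against tTregs was -0.31 with CPM and -0.011 with quantile normalization. Nfatc2 in restimulation was -0.015 with CPM. Rcan3 in CsA against restimulation was 0.0048 with DESeq2, 0.0039 with CPM, 0.00012 with edgeR, 0.00047 with quantile normalization and 0.0027 with recomputed size factors. Nfatc3 in the iTreg minus the tTreg response was 0.0024 with CPM and 0.015 with quantile normalization. Over the fits that left out a replicate number, signs changed as well. For Rcan1 the range was -0.061 to 0.028 in Tconv activation, -0.11 to 0.69 in tTreg activation, -0.67 to 0.13 in the Tconv minus the tTreg response, -0.19 to 0.62 in resting tTregs against Tconvs, -0.11 to 0.33 in restimulation, -0.17 to 0.19 in CM-4620 against restimulation, -0.21 to 0.018 in CM-4620 against CsA, -0.14 to 0.35 in the iTreg minus the Tconv response and -0.81 to 0.44 in the iTreg minus the tTreg response. For Ppp3cc the range was -0.086 to 0.24 in tTreg activation and -0.051 to 0.23 in the iTreg minus the tTreg response. For Rcan3 the range was -0.13 to 0.55 in tTreg activation, -0.36 to 0.14 in resting iTregs against tTregs, -0.031 to 0.037 in CsA against restimulation, -0.028 to 0.10 in CsA against rest and -0.49 to 0.13 in the iTreg minus the tTreg response. For Ppp3r1 the range was -0.18 to 0.37 in the Tconv minus the tTreg response and -0.19 to 0.021 in CM-4620 against CsA. For Ppp3ca the range was -0.088 to 0.078 in resting tTregs against Tconvs, -0.26 to 0.19 in CM-4620 against rest, -0.080 to 0.26 in CsA against rest and -0.12 to 0.55 in the iTreg minus the tTreg response. For Nfat5 the range was -0.14 to 0.050 in resting iTregs against Tconvs and -0.071 to 0.028 in CsA against restimulation. For Ppp3cb the range was -0.12 to 0.069 in resting iTregs against tTregs and -0.034 to 0.20 in the iTreg minus the tTreg response. For Nfatc2 the range was -0.033 to 0.036 in restimulation, -0.0015 to 0.028 in CsA against restimulation and -0.019 to 0.064 in CsA against rest. For Nfatc1 the range was -0.12 to 0.038 in CM-4620 against restimulation. For Nfatc3 the range was -0.0085 to 0.098 in CM-4620 against restimulation and -0.22 to 0.078 in the iTreg minus the tTreg response. Of the values at an adjusted p of 0.05 or more, Rcan3 in resting tTregs against Tconvs was called under 2 of 18 alternatives, Rcan1 in resting iTregs against tTregs under 2 of 17 and against Tconvs under 1 of 17, and Ppp3r1 in the iTreg minus the Tconv response under 9 of 17.

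Same-numbered libraries were not treated as pairs, because a correlation above 0.1 between their deviations from the group means was not reached by every pair: it was by 6 of 30 in the fit of 15 libraries (-0.007 on average, and 0.0034 between different numbers) and by 10 of 18 in that of the 12 iTreg libraries (0.15, and -0.075 between different numbers). Of the libraries, 9 of 15 and 10 of 12 correlated best with their own number, a hint of shared numbers in the iTreg libraries that comes from the data and not from the labels. With the replicate number as a block, the iTreg against the Tconv response called 5 members in place of 4, and the counts in the other comparisons were the same as without it.

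Over all genes, restimulation called 1425 genes, 878 at a filter of 100, 3264 with the adjusted p alone and 471 above a log2 change of 1. CM-4620 against restimulation called 366 (232 with all 24 libraries, as few as 170 without a replicate number), CsA 324 (187 and 126, and 213 at a filter of 100), and CM-4620 against CsA 40 (10 and 4). Against rest, CM-4620 called 789 (479 at a filter of 100) and CsA 1047 (654). The iTreg against the tTreg response called 2501, and 1525 without the libraries numbered 1. With the adjusted p alone the counts were 3994 in tTreg activation, 869, 945 and 86 in the 3 inhibitor comparisons above, and 2045 and 2705 against rest. Above a log2 change of 1 they were 3047 in Tconv activation, 763 in tTreg activation, 2046 for the difference between both, 2268, 4781 and 4750 in the resting comparisons (tTreg with Tconv, iTreg with Tconv, iTreg with tTreg), 98, 81, 6, 227 and 295 for the inhibitors in the order above, and 2857 and 978 for the iTreg response against that of Tconvs and tTregs. CPM scaling, chosen after seeing the data, moved the share of higher calls from 54.3% to 34.9% in tTreg activation, from 53.0% to 74.6% in resting tTregs against Tconvs, from 50.9% to 36.9% in resting iTregs against tTregs and from 42.3% to 56.9% in the iTreg against the tTreg response. On this scale Nfatc1 in resting iTregs against tTregs (-0.65) and Ppp3cb in Tconv activation (-0.50) passed the thresholds. Rcan1 had the fewest reads of the 10 genes, with 21 to 56 per library.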
